A study of Mus musculus with 14 samples.

Results

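HSC of 12-mo-old p53+/m mice were compared with HSC of WT mice of the same age, on 4 of the 14 Affymetrix MOE430A arrays of a study of HSC aging. The members were chosen by the sample titles alone and are 2 p53+/m arrays, A and B, and 2 WT arrays, A and B. All mice were male. WT mice were C57Bl/6, and mice with the p53 mutant alleles had been backcrossed onto that background for at least 4 generations. Complete replacement of the original strain's DNA is not stated. HSC were side population cells, which pump out the dye Hoechst, and were also c-Kit+, Sca-1+ and negative for lineage markers. Each array held RNA pooled from several mice and amplified by repeated in vitro transcription, and single mice were not measured. The labels do not say that the pools of a group came from separate litters or days, so p-values measure the spread between arrays, which may be technical. HSC from 12-mo-old p53+/- mice, which carry a null allele beside a WT allele, on 2 arrays, and 6 arrays of WT HSC of 2, 6 and 21 mo are given beside the comparison. The ages are those of the titles and the treatment field, since another field of the labels has 2 mo throughout.

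p53 is a transcription factor that is stabilized after DNA damage and other stress, and it turns on genes that stop the cell cycle, repair DNA or start apoptosis. MDM2, itself a product of a p53 target gene, tags p53 for destruction and so limits the response. In HSC, which divide rarely, p53 is known to hold cells in quiescence and to restrict the outgrowth of damaged cells. The m allele lacks the 5′ part of the p53 gene and gives a C-terminal fragment of the protein. Mice with the allele beside a WT copy of p53 are known for a heightened p53 response, resistance to tumors and early signs of aging. Trp53 itself is not named singly by the probe table and was not analysed here, so the genotype labels could not be checked on the altered gene.

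The 2 WT arrays differed far more from each other than the 2 p53+/m arrays did. Levels are the authors' GC-RMA values on the log2 scale, in which a difference of 1 is 2-fold. Of 22626 probe sets, 498 were 2-fold or more apart between p53+/m arrays A and B, and 3778 between WT arrays A and B (Pearson's r across probe sets of 0.994 and 0.967). In 2701 of those 3778 probe sets the p53+/m mean lay between the WT arrays. A principal component analysis of the 12 HSC arrays gave a first component with 42.1% of the variance, on which p53+/m arrays A and B lay at −12.0 and −0.0, and WT arrays A and B at 56.4 and −42.9. The 5′ control probe set of 18S ribosomal RNA read 5.71 and 7.18 on p53+/m arrays A and B, against 4.66 and 9.68 on the WT arrays, and its part in the results was not tested beyond a fit with it as a covariate. The 3′ minus 5′ difference of the β-actin control, which grows as RNA is degraded or cut short, was 4.07 and 3.56 on p53+/m arrays A and B, against 3.34 and 6.27 on WT arrays A and B, and that of Gapdh was 3.46 and 3.45, against 4.07 and 5.42. WT array B had the highest of all 14 arrays on both, and the part of RNA quality in the results was not tested. On the second component, with 15.1% of the variance, the p53+/m arrays lay at 42.4 and 43.4 and the p53+/- arrays at 28.0 and 25.6, whereas all 8 WT HSC arrays lay between −24.1 and −7.9. The labels name no batch. Genotype, any DNA of another strain left by the backcross and any shared handling of the mutant arrays cannot be told apart.

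Relative to WT, 47 probe sets were higher (0.208% of those tested) and 54 lower (0.239%) in p53+/m HSC. The test was limma over all 12 HSC arrays, which share 1 estimate of the spread, with a Benjamini-Hochberg adjusted p under 0.05 and a difference of at least 2-fold; a probe set called higher or lower here passed both. At an unadjusted p under 0.05 and 2-fold, 403 were higher and 541 lower. No probe set passed in either direction when only the 4 arrays compared were fitted, when the 6 HSC arrays of 12 mo were fitted, or when arrays were weighted by their spread. Without WT array A the counts were 299 higher and 260 lower, without WT array B 372 and 644, and without p53+/m array A 64 and 35. When each gene was read on its brightest probe set, 17 of 12393 genes were higher (0.137%) and 38 lower (0.307%), and at an unadjusted p under 0.05 and 2-fold 180 were higher (1.45%) and 371 lower (2.99%). The counts of gene lists below are read on the brightest probe set of each member and stand against these shares. All 47 and all 54 had both p53+/m arrays outside both WT arrays of 12 mo, the arrays on which they were called. The plot of differences from each WT array shows the p53+/m mean only.

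**Figure D1:**
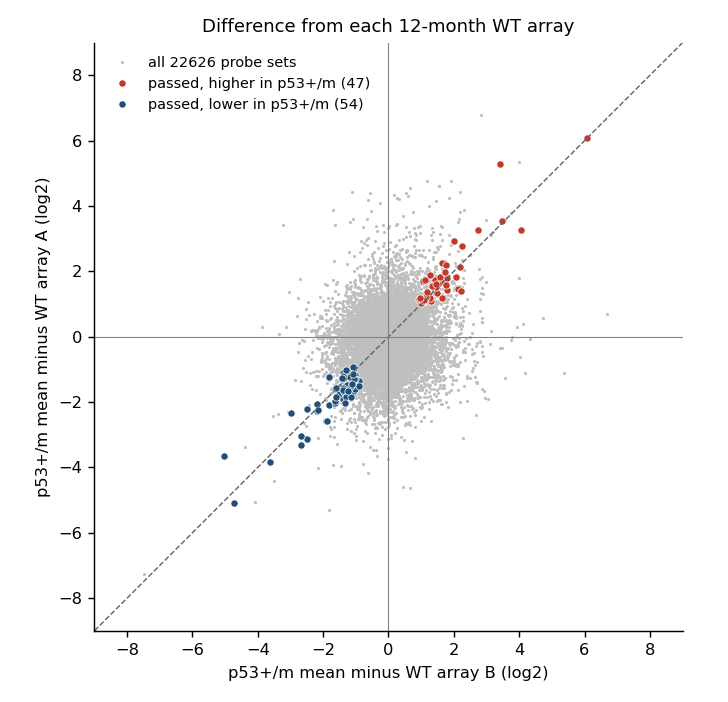
Each point is a probe set, with the p53+/m mean minus WT array B on the x axis and minus WT array A on the y axis, both in log2 units. The 47 probe sets past the threshold upward lie above 0 against both WT arrays and the 54 downward lie below 0 against both, while the grey points of all 22626 probe sets spread along both axes.

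Many of the called probe sets also lay beyond the range of WT HSC of any age. Of the 47 that were higher, 36 had both p53+/m arrays above all 8 WT HSC arrays, and of the 54 that were lower, 46 had both below all 8. The calls used the same p53+/m values and 2 of these 8 WT arrays. Their place outside the range thus follows in part from the call and is no support for it. For 6139 genes detected in the comparison, meaning at log2 5 or above on at least 2 of the 4 arrays, 345 had both p53+/m arrays above all 8 WT arrays (5.62%) and 601 had both below (9.79%). Against the 12-mo WT arrays alone, 1016 detected genes lay above both (16.5%) and 1600 below both (26.1%). The median difference was −0.09 over detected genes and −0.01 over all genes. Among the called probe sets, 12 of the 47 higher and 24 of the 54 lower ones were also at least 2-fold to the same side of WT in the p53+/- mean, a comparison that shares the WT arrays. In the comparison of p53+/m with p53+/- HSC, 10 of the 47 and 10 of the 54 passed the threshold in the same direction, where 19 (0.084%) and 25 (0.11%) of all probe sets did. That comparison shares the p53+/m arrays on which the 47 and 54 were called, so it is no independent support for them.

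The 10 largest rises are each read on 1 probe set of the gene. Where a group lies below log2 5, the floor of the scale takes part in the size of a difference, and its value and rank are not exact. Ctnnb1, which encodes β-catenin, the transcriptional arm of Wnt signaling, read 8.86 and 8.87 on p53+/m arrays A and B, against 3.57 and 5.44 on WT arrays A and B (difference 4.36, SE 0.57, adjusted p = 0.0301). That probe set is dim, and the brightest probe set of Ctnnb1 read 13.58 and 13.54 in p53+/m and 14.07 and 12.90 in WT HSC (difference 0.08, SE 0.32, adjusted p = 1.0), so the rise was not seen for the gene as a whole. Utrn, which encodes the dystrophin relative utrophin, read 8.95 and 8.67 in p53+/m, against 5.54 and 4.77 in WT HSC (difference 3.65, SE 0.48, adjusted p = 0.0301), but its brightest probe set read 10.73 and 10.94 in p53+/m and 10.95 and 10.82 in WT HSC. Zfp24, a zinc finger transcription factor, and Gnb4, a β subunit of heterotrimeric G proteins, were likewise called on 1 probe set (differences 3.01, SE 0.32, and 2.51, SE 0.28) and not on their brightest one.

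Other rises were on the brightest probe set of the gene. Tmem87a, a Golgi membrane protein, read 6.10 and 5.13 on the p53+/m arrays, 2.06 and 2.09 on the p53+/- arrays and 2.06 and 2.15 on the WT arrays, and so was near the floor of the scale in every group but p53+/m (difference from WT 3.51, SE 0.46, adjusted p = 0.0301). Mtmr9, a catalytically inactive myotubularin, read 11.10 and 10.55 in p53+/m and 7.89 and 8.82 in WT HSC (difference 2.47, SE 0.31). The uncharacterized 2610005L07Rik read 12.33 on both p53+/m arrays and 10.20 and 10.14 in WT HSC (difference 2.16, SE 0.26). Its dimmer probe set read 9.28 and 8.87 in p53+/m and 9.05 and 9.42 in WT HSC (difference −0.16, SE 0.20), so the rise was not seen there. Dusp2, a nuclear phosphatase that switches off MAP kinases, read 10.69 and 10.40 in p53+/m and 8.70 and 8.47 in WT HSC (difference 1.96, SE 0.27, adjusted p = 0.0350), above the highest of the 8 WT HSC arrays at 9.16. Zfp445, a KRAB zinc finger protein, and Vps37a, a subunit of the ESCRT-I sorting complex, differed by 1.98 (SE 0.30) and 1.96 (SE 0.30), the Vps37a probe set not being the brightest of its gene. Of these 10 genes, Gnb4 passed with any single array left out, while the other 9 fell short without p53+/m array A (adjusted p 0.0535 to 0.156), and Ctnnb1, Utrn, 2610005L07Rik, Dusp2, Zfp445 and Vps37a also without array B (0.0555 to 0.0973). Zfp445 fell short without WT array A as well (adjusted p = 0.0523).

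**Figure D2:**
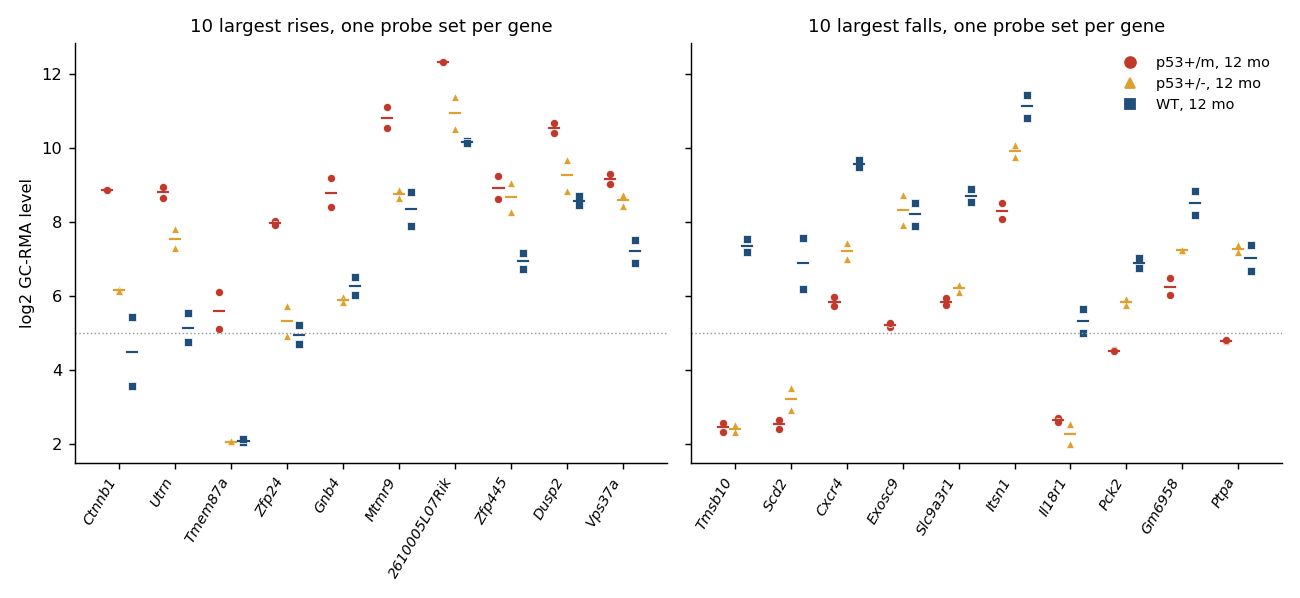
Log2 GC-RMA levels of the 10 largest called rises and 10 largest called falls among probe sets with 1 symbol, 1 probe set a gene. Circles are p53+/m, triangles p53+/- and squares WT arrays of 12 mo. Bars are the means of 2 arrays, and the dotted line is log2 5. The circles stand clear of the squares in all 20 genes, which the choice of genes required. The triangles lie beside the circles for Tmsb10, Slc9a3r1 and Il18r1 but beside the squares for Tmem87a, Zfp24, Gnb4, Exosc9 and Ptpa.

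Among genes called on their brightest probe set, the smallest p was that of Cxcr4, the receptor for the chemokine CXCL12, which holds HSC in the bone marrow niche. Cxcr4 read 5.73 and 5.97 on p53+/m arrays A and B, 7.02 and 7.45 on p53+/- arrays A and B and 9.67 and 9.48 on WT arrays A and B (difference −3.73, SE 0.24, adjusted p = 0.0045). The 8 WT HSC arrays of 2 to 21 mo lay between 9.35 and 10.04. The groups thus did not overlap, with p53+/- between p53+/m and WT. Between p53+/m and p53+/- the difference was −1.39 (adjusted p = 0.082), which missed the threshold. With any single array left out, the difference of p53+/m from WT stayed between −3.85 and −3.61, with adjusted p of 0.0085 or less.

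Exosc9, a subunit of the RNA exosome that degrades and trims RNA, read 5.17 and 5.28 in p53+/m, 7.92 and 8.72 in p53+/- and 8.53 and 7.90 in WT HSC (difference from WT −2.99, SE 0.30, adjusted p = 0.0168). It also differed between p53+/m and p53+/- HSC (−3.10, adjusted p = 0.0188), so the low level was seen in p53+/m arrays and not in p53+/- arrays. Ptpa, an activator of protein phosphatase 2A, had the same pattern on 1 of its 3 probe sets, at 4.79 and 4.81 in p53+/m, 7.38 and 7.20 in p53+/- and 7.39 and 6.67 in WT HSC (difference from WT −2.23, SE 0.22, adjusted p = 0.0155; from p53+/- −2.49, adjusted p = 0.0138). The other probe sets of Ptpa did not pass.

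Tmsb10, which encodes an actin-sequestering thymosin, read 2.59 and 2.34 on the p53+/m arrays and 2.53 and 2.33 on the p53+/- arrays, against 7.55 and 7.19 on the WT arrays (difference −4.90, SE 0.46, adjusted p = 0.0132), so that both p53 genotypes were below the detection limit. Its 4 other probe sets did not pass, and the brightest read 9.36 and 9.46 on the p53+/m arrays, against 10.11 and 11.96 on the WT arrays. Scd2, a stearoyl-CoA desaturase that makes monounsaturated fatty acids, was called on 1 of 3 probe sets, where p53+/m HSC were below the detection limit (difference −4.35, SE 0.45), while its brightest read 12.54 and 12.32 on the p53+/m arrays and 12.50 and 12.59 on the WT arrays. Slc9a3r1, a scaffold that ties membrane transporters to the cytoskeleton, fell by 2.86 (SE 0.23, adjusted p = 0.01), and its 2 other probe sets did not pass. Itsn1, an endocytic scaffold, and Pck2, the mitochondrial form of phosphoenolpyruvate carboxykinase, fell by 2.82 (SE 0.39) and 2.36 (SE 0.25) on a probe set that was not the brightest of the gene. Il18r1, a subunit of the interleukin 18 receptor, read 2.72 and 2.62 in p53+/m, 2.56 and 2.02 in p53+/- and 5.01 and 5.66 in WT HSC (difference −2.67, SE 0.41, adjusted p = 0.0494), and was below the detection limit in both p53 genotypes. Gm6958, a predicted gene, fell by 2.25 (SE 0.30). Of these 10 falls, Itsn1, Il18r1 and Gm6958 fell short without p53+/m array A (adjusted p 0.0828, 0.136 and 0.0548) and without array B (0.111, 0.138 and 0.0872), and the other 7 passed with any single array left out.

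The genes next to Trp53 on chromosome 11 were examined because the deletion of the m allele is known to reach beyond the 5′ end of p53. Of the 15 measured genes on the upstream side, taken in gene order, 7 were detected, and 6 of these 7 had a negative difference, with a median of −0.92. None passed the threshold in limma (lowest adjusted p = 0.125), and 3 were lower at an unadjusted p under 0.05 and 2-fold. Of the 7, 5 lay below both WT arrays of 12 mo (26.1% of all detected genes did) and 4 below all 8 WT HSC arrays (9.79% did). On the downstream side 8 of 15 genes were detected, with a median of −0.13; 3 lay below both WT arrays of 12 mo and 0 below all 8, and 1 passed the threshold. The same genes in p53+/- minus WT had medians of 0.01 upstream and −0.02 downstream, a comparison that shares the WT arrays.

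Naa38, a subunit of the N-terminal acetyltransferase NatC, was the third measured gene upstream and read 5.85 and 6.03 in p53+/m, 6.60 and 5.16 in p53+/- and 7.28 and 8.79 in WT HSC (difference −2.09, SE 0.64, adjusted p = 0.267). The p53+/- arrays were thus low as well. Cyb5d1, with a cytochrome b5 domain, read 6.43 and 7.02 in p53+/m and 8.24 and 7.06 in WT HSC (difference −0.92, SE 0.40), so that p53+/m array B and WT array B differed little. Trappc1, part of a complex that tethers vesicles at the Golgi, read 5.99 and 5.76 in p53+/m, 6.53 and 6.62 in p53+/- and 6.98 and 7.49 in WT HSC (difference −1.35, SE 0.41, adjusted p = 0.26). Per1, a repressor of the circadian clock, read 8.29 and 8.14 in p53+/m and 8.42 and 9.11 in WT HSC (difference −0.55, SE 0.25). Vamp2, a vesicle SNARE, was the fifteenth and read 7.16 and 7.21 in p53+/m, 8.98 and 8.10 in p53+/- and 8.19 and 8.48 in WT HSC (difference from WT −1.15, SE 0.26, adjusted p = 0.125). The 8 WT HSC arrays had Vamp2 between 8.09 and 9.20, above both p53+/m arrays, and the p53+/- arrays lay within that range.

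The other detected upstream genes had differences near 0. Rnf227, a RING finger gene, and Cntrob, which encodes a protein of the centriole, differed by −0.01 (SE 0.06) and 0.03 (SE 0.21). The genes closest to Trp53, Wrap53, which shares its promoter region with Trp53 on the opposite strand, and Efnb3, an ephrin ligand, were below the detection limit in p53+/m and WT HSC, as were Kcnab3, Gucy2e, Alox8, Alox12b, Aloxe3 and Hes7, so these data do not show their levels. Further upstream, beyond the 15 genes, other genes were chosen after their values were seen. Ctc1, part of the CST complex at telomeres, read 5.13 and 5.28 in p53+/m and 6.68 and 7.61 in WT HSC on the brightest of its 3 probe sets (difference −1.94, SE 0.39, adjusted p = 0.0978). The lowest of the 8 WT HSC arrays read 5.18 for Ctc1, so p53+/m array B lay within their range. Rangrf, a partner of the GTPase Ran, lay below all 8 WT HSC arrays (difference −0.87, SE 0.31, adjusted p = 0.352). Ndel1, which works with the motor dynein, lay above all 8 (difference 0.71, SE 0.28, adjusted p = 0.432). The lower levels were therefore not shared by all genes of the stretch.

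Downstream of Trp53, Polr2a, the largest subunit of RNA polymerase II, fell to 8.97 and 8.80 in p53+/m HSC, with 8.77 and 8.47 in p53+/- HSC, against 9.99 and 10.27 in WT HSC (difference −1.25, SE 0.15, adjusted p = 0.0234). The p53+/- arrays were lower still, and the 8 WT HSC arrays spanned 8.58 to 10.27, so p53+/m lay within the range of WT HSC of other ages. Polr2a fell short without p53+/m array B (adjusted p = 0.07). The other 7 detected downstream genes had differences between −0.55 and 0.60 and did not pass. They were Nlgn2, a neuroligin, at −0.55, Eif4a1, an RNA helicase of translation, at −0.38, Plscr3, a phospholipid scramblase, at −0.28, Mpdu1, of dolichol sugar use, at 0.03, Chrnb1, an acetylcholine receptor subunit, at 0.06, Senp3, a SUMO protease, at 0.16, and Fxr2, an RNA-binding relative of FMRP, at 0.60. Atp1b2, Shbg, Sox15, Cd68, Slc35g3, Fgf11 and Tnk1 were below the detection limit.

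**Figure D3:**
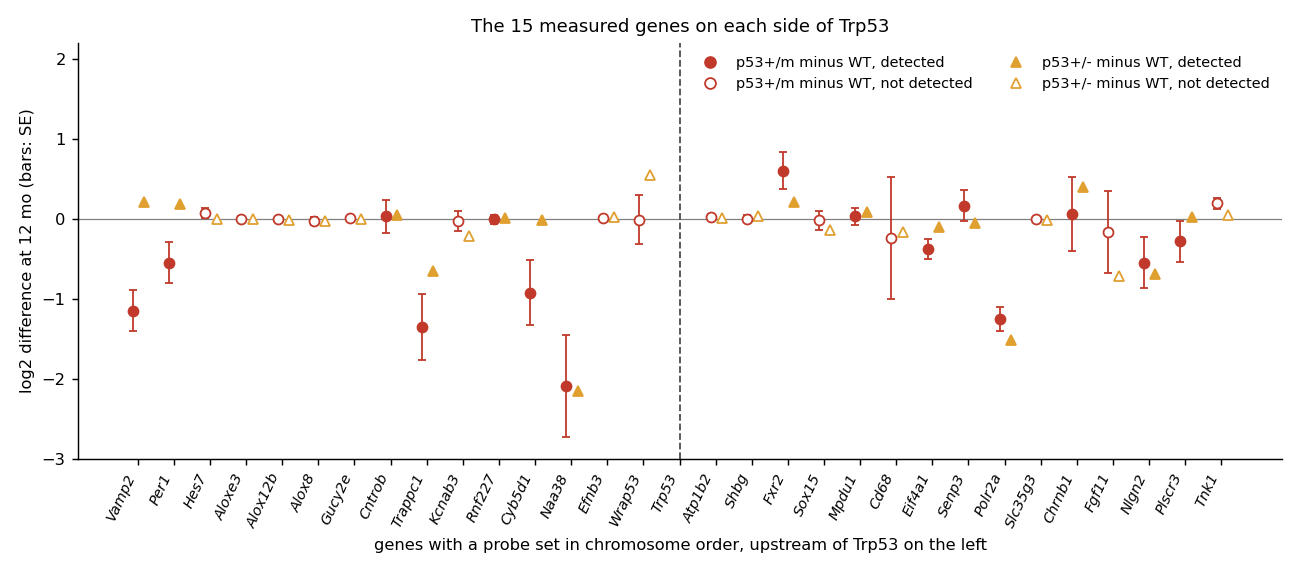
Log2 difference from WT at 12 mo for the 15 measured genes on each side of Trp53 in gene order, with circles for p53+/m (bars are the SE of the fit), triangles for p53+/- and open symbols for genes below the detection limit. Upstream, on the left, Naa38, Cyb5d1, Trappc1, Per1 and Vamp2 lie between −2.09 and −0.55 in p53+/m, while most downstream genes lie near 0 apart from Polr2a at −1.25.

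Few targets of p53 passed the threshold. Of 18 measured target genes of the cell cycle arm, 1 was higher (0.137% of all genes were) and 0 lower, and at an unadjusted p under 0.05 and 2-fold 3 were higher (1.45% of all genes were) and 0 lower. The median was −0.10 over the 14 detected ones. The gene past the threshold was Plk3, a polo-like kinase of the stress response, at 6.97 and 7.32 in p53+/m, 7.81 and 7.36 in p53+/- and 5.34 on both WT arrays (difference 1.80, SE 0.20, adjusted p = 0.0197). The 8 WT HSC arrays had 5.06 to 6.01, so both p53 genotypes lay above every WT array. Plk3 passed with any single array left out (adjusted p 0.018 to 0.0489). For the 15 measured targets of the apoptosis arm and the 16 of repair and metabolism the threshold was passed by 0, with 2 lower and 0 changed at the unadjusted level, and medians of −0.26 and 0.08 over detected members.

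Cdkn1a, which encodes the CDK inhibitor p21 and is the textbook target of p53, gave different results on its probe sets. The brightest read 10.85 and 11.31 in p53+/m, 11.34 and 10.59 in p53+/- and 9.18 and 10.60 in WT HSC (difference 1.19, SE 0.48, adjusted p = 0.454). The other, which the probe table assigns to Cdkn1a as well, read 9.85 and 10.13 in p53+/m, 9.87 and 9.84 in p53+/- and 8.32 and 8.31 in WT HSC, and rose (difference 1.68, SE 0.20, adjusted p = 0.0234). It fell short without p53+/m array B (adjusted p = 0.0674). The WT HSC arrays of all ages reached 10.56 on that probe set, above both p53+/m arrays. Btg2, an antiproliferative target, read 9.70 and 10.10 in p53+/m, 10.07 and 9.76 in p53+/- and 8.96 and 8.10 in WT HSC (difference 1.37, SE 0.31, adjusted p = 0.127), and lay above all 8 WT HSC arrays. Both genotypes with 1 altered p53 allele thus had Plk3 above both WT arrays of 12 mo. The same held for the brightest Btg2 probe set and the dimmer Cdkn1a probe set, but not for the other probe set of either gene. On the dimmer Btg2 probe set p53+/- HSC read 8.68 and 7.75, against 5.18 and 8.75 in WT HSC. Both p53+/m arrays lay above both WT arrays there (difference 2.97, SE 1.11, adjusted p = 0.391). On the brightest Cdkn1a probe set p53+/- array B did not exceed WT array B.

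The regulators and other classical targets showed smaller differences. Mdm2 read 8.48 and 8.41 in p53+/m and 8.46 and 8.33 in WT HSC (difference 0.05, SE 0.09). Ccng1, cyclin G1, had a difference of −0.66 (SE 0.29, adjusted p = 0.51), and Gadd45a, a damage-induced inhibitor of growth, one of −0.96 (SE 0.51, adjusted p = 0.645), at 6.56 and 6.51 in p53+/m and 8.40 and 6.58 in WT HSC. The death genes Bbc3 and Pmaip1, which encode PUMA and NOXA, differed by −0.25 (SE 0.32) and −0.41 (SE 0.30), and Fas, a death receptor, by 0.30 (SE 0.22). Trp53inp1, a cofactor of p53, differed by −0.20 (SE 0.32). Ndn and Gfi1, named as factors of HSC quiescence downstream of p53, differed by 0.17 (SE 0.40) and −0.999 (SE 0.47), and none of these genes passed. Siva1 and Apaf1, of the apoptosis list, had −1.002 (SE 0.26, adjusted p = 0.185) and −1.07 (SE 0.36, adjusted p = 0.322), and Dda1 and Pcna, of the repair list, −0.72 (SE 0.34) and 0.95 (SE 0.48). Among 23 measured regulators of p53, 0 passed in either direction, 0 at the unadjusted level with 2-fold, and the median was 0.11 over 18 detected ones; Crebbp, an acetyltransferase of p53, and Chek2, a kinase of the damage checkpoint, had the smallest p, with −0.80 (SE 0.31, adjusted p = 0.412) and −0.67 (SE 0.28, adjusted p = 0.475).

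Promoter windows from RefSeq, on the build GRCm38.p6 and reaching from 250 bases before to 50 bases after the transcription start, were searched for the p53 half-site, the decamer consensus of p53 binding, which reads the same on both strands. It was found in 2582 of 27025 genes (9.55%), in 11 of the 40 measured targets of p53 that had a window (27.5%), in 0 of 13 genes called higher and in 4 of 33 called lower. Windows of Cdkn1a, one of these targets, and of Mdm2, which is in the list of regulators and not among the 40, hold half-sites, and are shown with those of Plk3 and Cxcr4, the called target and the called gene with the smallest p, in which it was not found. They are printed 5′ to 3′ along the gene's strand, with the half-sites in capitals.
Cdkn1a, chr17:29090729-29091028 on the plus strand: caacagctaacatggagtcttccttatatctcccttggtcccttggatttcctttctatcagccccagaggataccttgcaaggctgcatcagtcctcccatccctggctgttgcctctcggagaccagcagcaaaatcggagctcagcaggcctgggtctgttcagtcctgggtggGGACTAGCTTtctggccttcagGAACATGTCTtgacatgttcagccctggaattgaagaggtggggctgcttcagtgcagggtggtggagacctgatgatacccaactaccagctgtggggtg
Mdm2, chr10:117710709-117711008 on the minus strand: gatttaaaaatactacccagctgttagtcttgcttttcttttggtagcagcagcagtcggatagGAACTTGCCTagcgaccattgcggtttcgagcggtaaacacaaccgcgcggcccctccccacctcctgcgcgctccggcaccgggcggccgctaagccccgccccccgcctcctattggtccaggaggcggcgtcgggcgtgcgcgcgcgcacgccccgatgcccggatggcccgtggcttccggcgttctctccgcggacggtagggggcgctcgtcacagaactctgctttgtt
Plk3, chr4:117133914-117134213 on the minus strand: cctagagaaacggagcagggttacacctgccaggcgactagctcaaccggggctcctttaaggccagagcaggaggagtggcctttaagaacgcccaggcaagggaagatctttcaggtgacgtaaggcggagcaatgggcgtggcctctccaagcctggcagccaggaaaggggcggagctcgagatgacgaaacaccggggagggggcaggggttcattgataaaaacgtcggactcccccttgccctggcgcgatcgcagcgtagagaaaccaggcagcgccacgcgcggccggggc
Cxcr4, chr1:128592250-128592549 on the minus strand: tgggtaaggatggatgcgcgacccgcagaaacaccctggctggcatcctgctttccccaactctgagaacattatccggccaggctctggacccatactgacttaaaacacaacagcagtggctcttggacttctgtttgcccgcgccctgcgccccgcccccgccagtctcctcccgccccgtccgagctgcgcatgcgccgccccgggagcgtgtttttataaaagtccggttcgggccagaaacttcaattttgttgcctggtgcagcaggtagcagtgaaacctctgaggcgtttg
The 2 half-sites of Cdkn1a begin 73 and 51 bases before the transcription start of the window shown, 1 of its 2 windows. That of Mdm2 begins 186 bases before its transcription start. The 11 targets with a half-site had differences between −1.002 (Siva1) and 1.19 (Cdkn1a), and 0 of them passed the threshold on their brightest probe set. A match is a description of these letters and not a binding site, and a window without one says nothing of sites elsewhere.

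Genes of the cell cycle and of DNA replication were lower on balance. Of 39 measured members 1 fell (0.307% of all genes did) and 0 rose, and at an unadjusted p under 0.05 and 2-fold 6 were lower (2.99% of all genes were) and 0 higher. Over the 29 detected members the median was −0.49, against −0.09 over all detected genes, and 5 were above 0. Of the 29, 16 had both p53+/m arrays below both WT arrays of 12 mo (26.1% of all detected genes did) and 10 below all 8 WT HSC arrays (9.79% did). The median was −0.45 against WT array A and −0.64 against WT array B, so the direction did not depend on which WT array was used.

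Mcm6, a subunit of the replicative helicase, fell to 9.28 and 8.99 in p53+/m, with 10.58 and 10.67 in p53+/-, against 11.16 and 10.46 in WT HSC (difference from WT −1.67, SE 0.22, adjusted p = 0.0309). The 8 WT HSC arrays spanned 10.46 to 11.23, above both p53+/m arrays. Mcm6 fell short without p53+/m array A (adjusted p = 0.0647) and without array B (0.0947), and its dimmer probe set did not pass. Chosen after their values were seen, Mcm4, of the same helicase, read 8.37 and 8.25 in p53+/m and 9.03 and 9.63 in WT HSC (difference −1.02, SE 0.36, adjusted p = 0.356), and Cdc6, which loads the helicase, read 6.32 and 5.29 in p53+/m and 7.82 and 6.52 in WT HSC (−1.37, SE 0.56, adjusted p = 0.465). Both had both p53+/m arrays below all 8 WT HSC arrays. In the other direction Orc1, of the origin recognition complex, read 4.24 and 4.47 in p53+/m and 3.29 and 3.50 in WT HSC, which is below the detection limit (0.95, SE 0.17, adjusted p = 0.0709).

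The lists of CDK inhibitors, DNA repair and apoptosis held no gene called on its brightest probe set. Of 20 measured CDK inhibitors and regulators of G1, 0 passed and 0 did at the unadjusted level with 2-fold, and the median was 0.01 over 15 detected members; E2f3, a transcription factor of the G1 to S step, at 4.15 and 4.11 in p53+/m and 4.54 and 4.82 in WT HSC, was below the detection limit (−0.55, SE 0.09, adjusted p = 0.0514), and Ccnd2, cyclin D2, had 0.96 (SE 0.48, adjusted p = 0.607). Ccnd2 rose on 1 of its 7 probe sets, at 12.23 and 12.06 in p53+/m, 11.59 and 10.93 in p53+/- and 10.36 and 10.69 in WT HSC (1.62, SE 0.25, adjusted p = 0.0494), with both p53+/m arrays above all 8 WT HSC arrays. That call was lost without p53+/m array A (adjusted p = 0.157), p53+/m array B (0.11) or WT array A (0.0534), and the 5 remaining probe sets had differences between −0.32 and 1.31 and did not pass. Of 48 measured DNA repair genes 0 passed, 2 were lower and 0 higher at the unadjusted level, and the median was −0.34 over 30 detected members, 10 of which lay below both WT arrays of 12 mo and 3 below all 8, close to the 26.1% and 9.79% of all detected genes. Poli, a translesion polymerase, read 5.33 and 5.07 in p53+/m and 4.62 and 4.41 in WT HSC (0.68, SE 0.13, adjusted p = 0.0929), and Wrn, the Werner syndrome helicase, 5.80 and 5.21 in p53+/m and 6.31 and 6.97 in WT HSC (−1.14, SE 0.29, adjusted p = 0.176). Of 27 genes of the BCL2 family and caspases 0 passed, 1 was higher at the unadjusted level, and the median was 0.12 over 19 detected members. That gene was Bcl2l11, which encodes the killer protein BIM, at 9.79 and 10.26 in p53+/m and 8.98 and 8.36 in WT HSC (1.36, SE 0.22, adjusted p = 0.0535). The dimmer probe sets of Bcl2l11 had differences between −0.01 and 0.33 and did not pass. Diablo, which frees caspases from their inhibitors, had 0.49 (SE 0.15, adjusted p = 0.269).

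Markers of HSC were present on all arrays of the comparison. Of 38 measured markers, 33 lay at log2 5 or above on each, and their summed linear level was 72422 and 76128 on p53+/m arrays A and B, against 72381 and 55171 on WT arrays A and B. The threshold was passed by 2, Cxcr4 downward and Egr1 upward, and the median was −0.02 over 33 detected markers, against 0.137% of all genes called upward and 0.307% downward. Egr1, a transcription factor that keeps HSC quiescent and in the niche and that also belongs to the immediate early genes, read 13.22 and 13.25 in p53+/m, 12.19 and 12.50 in p53+/- and 11.56 and 11.54 in WT HSC (difference from WT 1.68, SE 0.21, adjusted p = 0.0275). The highest of the 8 WT HSC arrays read 12.70. Egr1 fell short without p53+/m array A (adjusted p = 0.0859) and without array B (0.0804). At an unadjusted p under 0.05 and 2-fold, 3 markers were higher and 5 lower (1.45% and 2.99% of all genes were). Among them, chosen after their values were seen, Itga6, an integrin of the HSC surface, read 11.61 and 12.13 in p53+/m and 10.39 and 10.51 in WT HSC (1.42, SE 0.38, adjusted p = 0.196), and Fli1, an ETS factor of HSC and megakaryocytes, 6.13 and 5.97 in p53+/m and 7.41 and 7.52 in WT HSC (−1.41, SE 0.30, adjusted p = 0.115).

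Of 31 measured genes of quiescence and niche signaling, 1 was lower and 0 higher, with 2 lower and 1 higher at the unadjusted level and a median of −0.05 over 24 detected members. Foxo1, a transcription factor that guards HSC against oxidative stress, fell to 7.93 and 7.80 in p53+/m, with 7.60 and 7.65 in p53+/- HSC, against 9.22 and 8.77 in WT HSC (difference −1.12, SE 0.13, adjusted p = 0.0234). It was called on 1 of its 4 probe sets, lay within the range of the 8 WT HSC arrays (7.60 to 9.22), and fell short without p53+/m array A (adjusted p = 0.0535) and without array B (0.0706). Without WT array A its difference was −0.90, under 2-fold. Calcrl, a receptor for peptides of the calcitonin family that is known from HSC and vessels, is in no list and was chosen after its values were seen; it read 8.97 and 9.19 in p53+/m, 9.89 and 9.99 in p53+/- and 10.20 and 10.34 in WT HSC, below all 8 WT HSC arrays (difference from WT −1.19, SE 0.10, adjusted p = 0.0101).

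**Figure D4:**
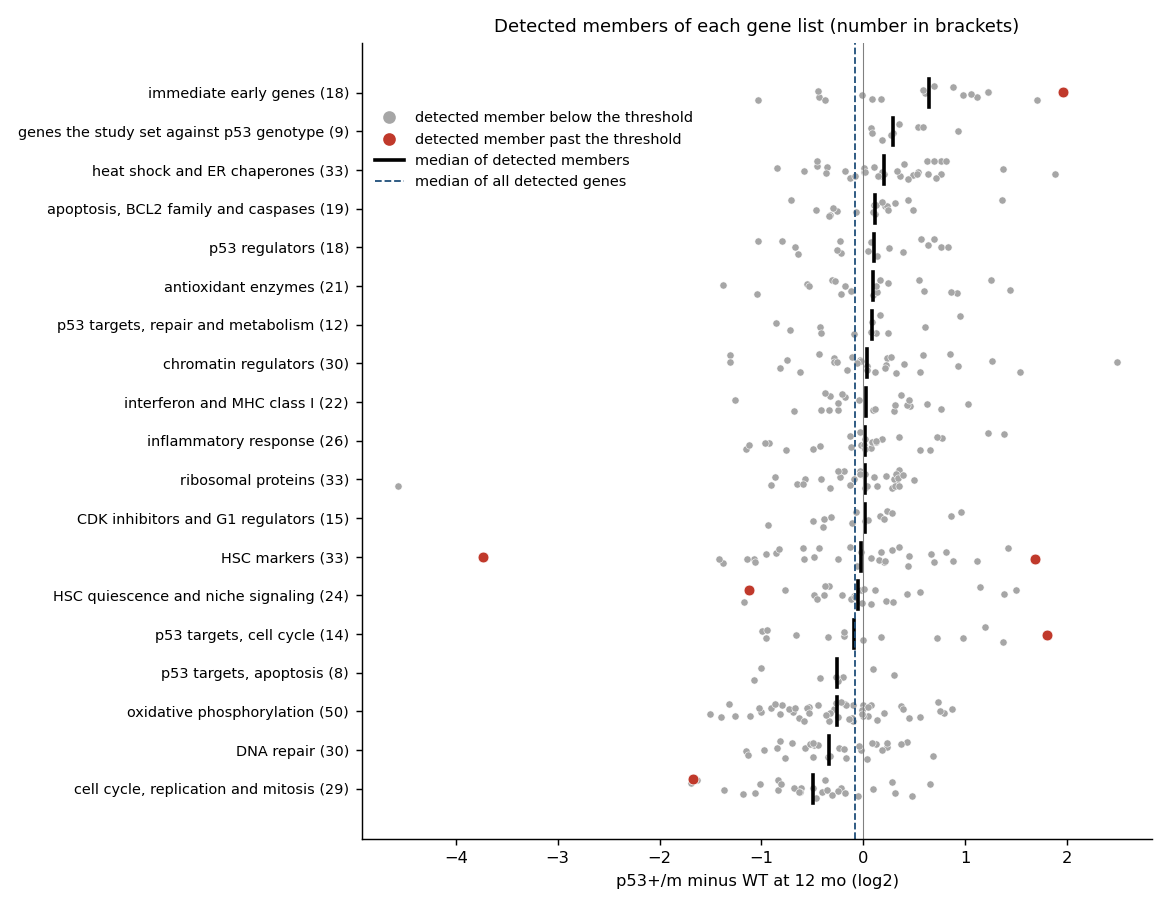
Difference of p53+/m from WT at 12 mo (log2, x axis) for each detected member of 19 gene lists, ordered by their median (black bar), with the median of all detected genes as a dashed line and members past the threshold in red. The immediate early genes lie farthest to the right, at a median of 0.65, the genes of the cell cycle farthest to the left, at −0.49, and at most 2 members of any list are red.

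Immediate early genes, which are switched on within minutes of stimulation, were higher on balance. Of 25 measured, 1 was higher and 0 lower, and at an unadjusted p under 0.05 and 2-fold 3 were higher and 1 lower. Over 18 detected members the median was 0.65, at 0.60 against WT array A and 0.72 against WT array B, so both WT arrays gave the same direction. Of the 18, 9 lay above both WT arrays of 12 mo (16.5% of all detected genes did) and 7 above all 8 WT HSC arrays (5.62% did). Dusp2, described above, was the called member, and Egr1 was counted with the HSC markers and not in this list. Chosen after their values were seen, Atf3, a stress-induced repressor, read 10.35 and 10.36 in p53+/m, 11.03 and 10.54 in p53+/- and 7.87 and 9.43 in WT HSC (1.70, SE 0.59, adjusted p = 0.337). Jun, a subunit of AP-1, read 12.50 and 12.52 in p53+/m, 12.97 and 11.71 in p53+/- and 11.79 and 10.78 in WT HSC (1.22, SE 0.53, adjusted p = 0.504). Socs3, which curbs cytokine signaling, went the other way, at 10.78 on both p53+/m arrays and 11.84 and 11.78 on the WT arrays (−1.03, SE 0.31, adjusted p = 0.251).

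The subunits of oxidative phosphorylation were all detected, 50 of 50 measured, and had a median of −0.26. None passed, 6 were lower (2.99% of all genes were) and 0 higher at the unadjusted level with 2-fold, 15 lay below both WT arrays of 12 mo (26.1% of all detected genes did) and 11 below all 8 WT HSC arrays (9.79% did), with 3 above both (16.5% did) and 1 above all 8 (5.62% did). The share of the list below both WT arrays was thus near that of all detected genes, while the share below all 8 was larger. The share lower at the unadjusted level was also larger, but 2.99% is of all genes, detected or not. Ndufa5, of complex I, read 9.34 and 9.22 in p53+/m, 9.11 and 8.85 in p53+/- and 10.30 and 10.90 in WT HSC (−1.32, SE 0.21, adjusted p = 0.0525). Cox8a, of complex IV, read 9.66 and 9.60 in p53+/m, 8.74 and 8.88 in p53+/- and 8.78 and 8.90 in WT HSC, passed the test in the upward direction but not the 2-fold limit (0.80, SE 0.09, adjusted p = 0.0234), and also differed between p53+/m and p53+/- (0.83, adjusted p = 0.0300). Ribosomal protein genes had a median of 0.01 over 33 detected of 34 measured, with 0 called and 1 lower at the unadjusted level. That gene, Rps9, read 8.49 and 10.98 in p53+/m, 13.89 and 13.49 in p53+/- and 14.80 and 13.80 in WT HSC (−4.57, SE 0.74, adjusted p = 0.0582), while another probe set of Rps9 read 11.97 and 11.95 in p53+/m and 12.27 and 11.80 in WT HSC, so the difference did not extend to the gene. Rpl37 had −0.91 (SE 0.19, adjusted p = 0.114).

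Genes of inflammation, interferon and stress held no member called on its brightest probe set. Of 42 measured genes of the inflammatory response, 1 was higher and 2 lower at the unadjusted level with 2-fold, with a median of 0.02 over 26 detected. Tnfrsf1b, a TNF receptor, read 7.38 and 7.48 in p53+/m and 8.89 and 8.27 in WT HSC (−1.15, SE 0.20, adjusted p = 0.0728), and Cebpb, a transcription factor of emergency myelopoiesis, had −1.12 (SE 0.23, adjusted p = 0.104). Of 33 measured interferon and MHC class I genes, 1 was higher and 2 lower at that level, with a median of 0.02 over 22 detected; Ifitm1, an antiviral membrane protein, read 13.69 and 13.65 in p53+/m and 12.92 and 12.89 in WT HSC (0.76, SE 0.15, adjusted p = 0.0972), and Ifi35 had 1.03 (SE 0.23, adjusted p = 0.13). Of 36 chaperones 1 was higher and 0 lower at that level, with a median of 0.20 over 33 detected, but the 2 WT arrays themselves differed there by a median of 0.63, and the median was −0.21 against WT array A and 0.58 against WT array B. The members with the smallest p were Dnaja1, a partner of HSP70, with 0.33 (SE 0.10, adjusted p = 0.261) and Hsp90b1, of the endoplasmic reticulum, with 1.37 (SE 0.46, adjusted p = 0.322). Hsp90aa1, the inducible cytosolic HSP90, rose on a dimmer probe set, at 13.20 and 13.23 in p53+/m, 12.13 and 12.41 in p53+/- and 11.40 and 11.63 in WT HSC (1.70, SE 0.19, adjusted p = 0.0198), which fell short without p53+/m array A (0.0569) and without array B (0.0568), while its brightest read 13.53 and 13.68 in p53+/m and 13.64 and 13.20 in WT HSC (0.19, SE 0.20, adjusted p = 0.965). Of 38 chromatin regulators, 3 were higher and 1 lower at that level, with a median of 0.04 over 30 detected; Smarcc1, of the SWI/SNF remodeler, had 0.85 (SE 0.20, adjusted p = 0.144), and Smarcd1, of the same complex, passed the test below the detection limit but not 2-fold (−0.23, SE 0.03, adjusted p = 0.0271). Of 27 antioxidant enzymes, 1 was higher and 2 lower at that level, with a median of 0.09 over 21 detected; Cat, catalase, read 8.55 and 8.37 in p53+/m, 9.68 and 8.91 in p53+/- and 9.96 and 9.72 in WT HSC (−1.38, SE 0.23, adjusted p = 0.0658), and Prdx3, a mitochondrial peroxiredoxin, had −1.05 (SE 0.25, adjusted p = 0.153).

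The study had set 9 genes against p53 genotype, and so had picked them on these arrays. It gave them as predicted ages with p53+/m set against p53+/- HSC, which is not the comparison made here. In its discussion the study also says that p53+/m HSC appeared younger than WT HSC of that age. Against WT they gave 0 calls on their brightest probe sets and 0 at the unadjusted level with 2-fold. All 9 had positive differences from WT, with a median of 0.29. The median was 0.74 against WT array A and −0.23 against WT array B, so the sign followed the WT array. Selp, which encodes the adhesion molecule P-selectin, read 9.73 and 10.48 in p53+/m, 7.89 and 8.86 in p53+/- and 9.37 and 10.47 in WT HSC (0.19, SE 0.53, adjusted p = 1.0). Dnmt3b, a DNA methyltransferase, read 10.99 and 10.42 in p53+/m, against 8.51 and 11.05 in WT HSC (0.93, SE 0.74, adjusted p = 0.842), with p53+/m between the WT arrays. Dnaja2, another partner of HSP70, read 7.86 and 7.89 in p53+/m and 9.76 and 4.92 in WT HSC (0.53, SE 1.33), and so was below WT array A and above WT array B. Sirt7, a sirtuin, was the 1 gene of the 9 above both WT arrays, at 8.95 and 8.76 in p53+/m and 8.25 and 8.28 in WT HSC (0.59, SE 0.29, adjusted p = 0.591). The differences from WT were 0.08 (SE 0.26) for Icam1, an adhesion molecule, and 0.29 (SE 0.40) for Smad4, of TGFβ signaling. They were 0.27 (SE 0.66) for Hdac6, a cytoplasmic deacetylase, and 0.35 (SE 0.84) for Ptgs2, cyclooxygenase 2. Against p53+/- HSC they were 1.73 for Selp, 1.36 for Ptgs2, 0.96 for Dnmt3b, 0.72 for Hdac6 and 0.65 for Sirt7. Smad4 had 0.56, Ctnnb1 0.20, Dnaja2 −0.49 and Icam1 −0.65 in that comparison, and none of these passed the threshold.

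Several defining markers of other cell types lay near the floor of the scale, while other members of some of the same lists were bright. In bulk samples fewer cells of a type and less RNA per cell cannot be told apart. Cd3e of T cells, Cd79a and Pax5 of B cells, Itgam of myeloid cells, Elane of neutrophils, Alas2 of erythroid cells and Cdh5 of endothelium all lay below log2 3 on p53+/m and WT arrays. Detected were 2 of 16 B lineage, 1 of 15 T and NK, 6 of 13 neutrophil and 4 of 15 monocyte markers. So were 2 of 13 erythroid, 3 of 16 endothelial and stromal, 6 of 9 MHC class II and dendritic and 3 of 5 plasma cell markers. Prtn3 of neutrophils read 6.63 and 8.86 in p53+/m and 8.70 and 9.31 in WT HSC. The summed B lineage level of 12747 on p53+/m array A had 1 of 16 members at log2 5 or above. Lyz2, lysozyme of myeloid cells, read 11.14 and 11.26 in p53+/m and 10.51 and 10.31 in WT HSC (0.79, SE 0.16, adjusted p = 0.0999). Of 11 megakaryocyte and platelet markers, 3 were detected, with a summed linear level over the list of 336 and 438 on the p53+/m arrays, 523 and 334 on the p53+/- arrays and 956 and 975 on the WT arrays. Nfe2, a transcription factor of megakaryocytes and erythroid cells, read 6.62 and 6.34 in p53+/m, 7.61 and 7.62 in p53+/- and 8.52 and 8.24 in WT HSC (−1.90, SE 0.32, adjusted p = 0.0658), and Pf4, platelet factor 4, 7.35 and 7.89 in p53+/m, 7.81 and 6.11 in p53+/- and 8.80 and 9.19 in WT HSC (−1.38, SE 0.69, adjusted p = 0.601). Fli1 above is also a gene of that lineage, and the part of such cells in its lower value was not tested.

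Sdc1, a plasma cell marker, was the 1 marker of another cell type past the threshold, at 4.19 and 4.01 in p53+/m, 5.67 and 6.02 in p53+/- and 6.36 and 6.25 in WT HSC (−2.20, SE 0.18, adjusted p = 0.0101), on 1 of its 4 probe sets and with a difference from p53+/- too (−1.74, adjusted p = 0.0243). The sums of the 5 immunoglobulin and plasma cell genes were 203 and 417 on the p53+/m arrays, against 490 and 338 on the WT arrays. Summed levels of 13 neutrophil markers were 550 and 1516, against 1398 and 2194; of 15 monocyte markers 11628 and 9858, against 7797 and 8427; of 13 erythroid markers 6028 and 6134, against 5881 and 3879; and of 16 B lineage markers 12747 and 12732, against 20126 and 9220, always p53+/m before WT. In the remaining lists 0 passed the threshold. At the unadjusted level with 2-fold, 1 monocyte gene was higher, Cd14, at 10.15 and 10.10 in p53+/m and 9.07 and 8.42 in WT HSC (1.38, SE 0.40, adjusted p = 0.235), and 0 were changed among B lineage, T and NK, neutrophil, erythroid, endothelial and stromal, and MHC class II markers.

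The position of the p53+/m arrays on the course of WT aging was read from genes chosen without the arrays of 12 mo. These were 677 genes that rose and 711 that fell between the WT arrays of 2 and 21 mo, with each array placed on a scale from 0, the WT mean at 2 mo, to 1, the WT mean at 21 mo. For the rising genes the medians were 0.31 and 0.45 on p53+/m arrays A and B and 0.40 and 0.56 on the p53+/- arrays, against 0.86 and 0.13 on WT arrays A and B of 12 mo. For the falling genes they were 0.45 and 0.54 on the p53+/m arrays and 0.52 and 0.71 on the p53+/- arrays, against 0.83 and 0.23 on the WT arrays of 12 mo. The 4 arrays of both p53 genotypes thus lay between the WT arrays of 12 mo, and those of p53+/m a little below those of p53+/- in the lower and in the higher array of each pair. The p53+/m mean lay between the 2 WT arrays of 12 mo in 416 of the rising and 418 of the falling genes. A difference in age position between p53+/m and WT HSC at 12 mo was smaller than the gap between the WT arrays and was not detectable with them. The study's statement that p53+/m HSC appeared younger than WT HSC of that age can thus not be decided from this scale.

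**Figure D5:**
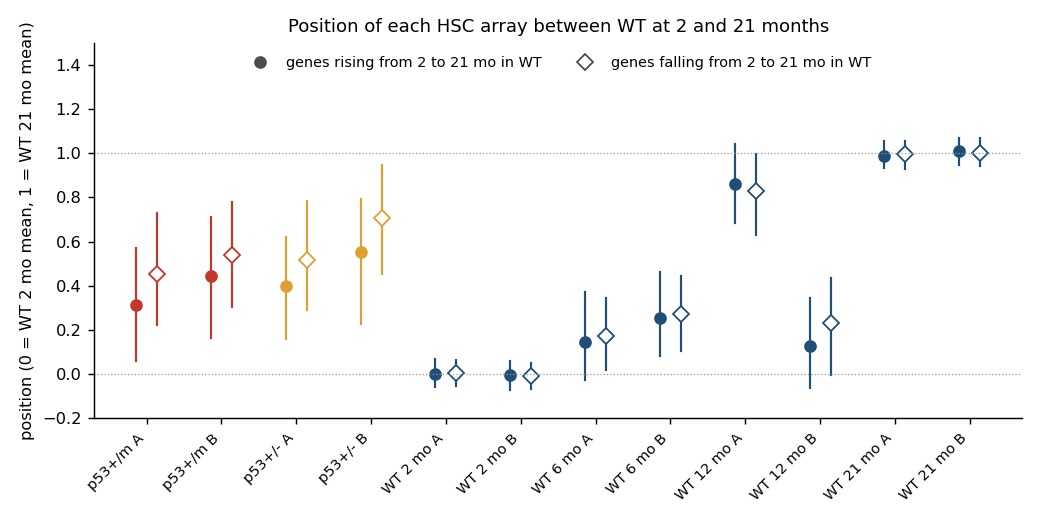
Median position of each HSC array, with quartiles over genes as lines, for 677 genes that rose (filled circles) and 711 that fell (open diamonds) between WT arrays of 2 and 21 mo, on a scale from 0 (WT mean at 2 mo) to 1 (WT mean at 21 mo). The p53+/m arrays lie between 0.31 and 0.54, inside the span of the 2 WT arrays of 12 mo, which lie at 0.86 and 0.13 for rising genes.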

How the data were processed

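RNA of sorted HSC was measured on Affymetrix MOE430A arrays, 2 per group. The authors processed the scans with MAS 5.0 and deposited GC-RMA values on the log2 scale. Neither the version of GCRMA nor a joint normalization of the arrays is stated. Values were used as deposited, for 22626 probe sets without 64 controls, of which 20380 carry 1 symbol (12393 genes, each represented by the probe set that was brightest on average over 12 HSC arrays). The number of arrays limits the precision.

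Groups came from the titles. limma 3.58.1 in R 4.3.3 (lmFit, eBayes) was fitted with group means over 12 HSC arrays (6 residual degrees of freedom), contrast p53+/m minus WT at 12 mo, and p-values were adjusted by Benjamini-Hochberg over all probe sets; the procedure was tested on simulated data. Alternatives varied the arrays, normalization, filter, prior, weights and covariates. Gene order and promoter windows are those of RefSeq for GRCm38.p6.

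The gene lists and named genes were chosen with earlier results of these data known. Named were the 10 largest called rises and falls with 1 symbol and no overlap, the 15 measured genes on each side of Trp53, up to 4 called members of each list in each direction (otherwise the 2 with the smallest p), a set of p53 targets and the genes the study set against genotype. Bax, Ly6a, Igkc and Trp53 were not analysed here.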

Additional observations from a re-analysis of the deposited data

How the results depend on the processing

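The counts of probe sets higher and lower in p53+/m than in WT HSC, 47 and 54 as reported, depended on how the spread was estimated. They were 0 and 0 with only the 4 arrays compared (266 and 343 at an unadjusted p under 0.05 and 2-fold), 0 and 0 with the 6 HSC arrays of 12 mo (300 and 390) and 0 and 0 with array weights (264 and 313), which gave the WT arrays of 12 mo the lowest weight, 0.277 each. They were 85 and 99 with all 14 arrays, 86 and 84 after a filter on low values (9947 probe sets), 106 and 114 with the 18S level as a covariate, 32 and 35 with an intensity trend, 51 and 46 after quantile normalization, 93 and 70 with no fold threshold and 403 and 541 with unadjusted p. With single arrays left out, the higher count ranged from 43 to 372 and the lower from 35 to 644; the extremes were without p53+/m array B and without WT array B for the higher count, and without p53+/m array A and without WT array B for the lower. Without WT array A they were 299 and 260. With the replicate letter as a block they were 23 and 36, and 23 and 33 of these were among those reported. The letters do not pair the arrays: the A minus B differences of p53+/m and WT at 12 mo correlated at −0.151 across probe sets. With the letters of the WT pair crossed, chosen after seeing the data, the counts were 29 and 41. A named gene was counted as reversed when its sign changed and the threshold was passed in the reported or the alternative fit. By that rule Dnaja2 reversed, ranging from −1.889 without WT array B to 2.956 without WT array A. Pdcd6ip, called higher, reversed to −0.049 with the mean of its probe sets (adjusted p = 0.979). Other named genes changed sign with the WT array left out and were not counted as reversed. Among them were Dnmt3b, Smad4, Hdac6, Selp, Ptgs2 and the brightest probe set of Ctnnb1. The cause was not tested. Of the 41 named probe sets that were called, 25 lost the call with the mean of the probe sets of the gene, besides Pdcd6ip. In each fit with 0 calls all 41 lost it. The 2 arrays a side limit what can be detected.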

Other observations

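Several genes outside the lists were called on their brightest probe set and were chosen after their values were seen. Pnp, purine nucleoside phosphorylase, read 11.81 and 11.79 on p53+/m arrays A and B, against 10.13 and 10.37 on the WT arrays (difference 1.55, SE 0.14, adjusted p = 0.0132), and lay above all 8 WT HSC arrays. Tnfrsf12a, the receptor for the cytokine TWEAK, read 9.37 and 9.36 in p53+/m, 8.58 and 8.15 in p53+/- and 7.94 and 7.58 in WT HSC (1.61, SE 0.20, adjusted p = 0.0271), and fell short without p53+/m array A (adjusted p = 0.0859) and without array B (0.0769). Smc1a, a subunit of cohesin, read 12.31 and 12.43 in p53+/m and 11.18 and 10.74 in WT HSC (1.41, SE 0.18, adjusted p = 0.0267), and fell short without array A (0.0683) and without array B (0.0801). Pdcd6ip, which encodes the ESCRT partner ALIX, read 10.35 and 10.31 in p53+/m and 8.98 and 8.86 in WT HSC (1.41, SE 0.19, adjusted p = 0.0301) on its brightest probe set, while a dimmer one went the other way, at 6.37 and 6.25 in p53+/m and 7.29 and 7.08 in WT HSC (−0.88, adjusted p = 0.017), and the brightest fell short without array A (0.0965) and without array B (0.083).

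The falls that follow were also picked from the called genes, and no list of such genes was tested; of the 50 measured subunits of oxidative phosphorylation 0 were called. Taf4, of the general factor TFIID, read 5.76 and 6.15 in p53+/m, 7.18 and 6.98 in p53+/- and 7.21 and 7.38 in WT HSC (−1.34, SE 0.13, adjusted p = 0.0168). Gtf3c1, of the RNA polymerase III factor TFIIIC, read 4.78 and 4.75 in p53+/m, 4.75 and 4.73 in p53+/- and 5.98 and 6.16 in WT HSC (−1.31, SE 0.10, adjusted p = 0.0075). Alyref, which couples transcription to the export of mRNA, read 5.90 and 6.26 in p53+/m and 8.16 and 7.89 in WT HSC (−1.94, SE 0.25, adjusted p = 0.0273), and fell short without p53+/m array A (0.0886). Tomm70a, a receptor for protein import into mitochondria, read 8.83 and 9.08 in p53+/m and 10.53 and 10.24 in WT HSC (−1.43, SE 0.12, adjusted p = 0.0101), below all 8 WT HSC arrays. Cox15, which makes the heme of complex IV, read 7.65 and 7.90 in p53+/m, 7.84 and 7.77 in p53+/- and 8.80 and 8.87 in WT HSC (−1.06, SE 0.09, adjusted p = 0.0101), and was under 2-fold without p53+/m array A. Npl, an enzyme of sialic acid breakdown, read 8.19 and 7.97 in p53+/m, 8.21 and 7.42 in p53+/- and 10.14 and 10.27 in WT HSC (−2.13, SE 0.30, adjusted p = 0.0373), and fell short without array A (0.0941) and without array B (0.115).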
